A study of Mus musculus with 2 samples.

Results

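Long intergenic noncoding RNA (lincRNA) genes on the autosomes were examined in the stomach of mouse embryos of strain B6NCrl at 14.5 days of gestation. Genes of the lincRNA class of GENCODE M21 on chromosomes 1 to 19 were taken when they reached a TPM of 1 (a level corrected for transcript length and library size) in both libraries. H19, Meg3, Rian, Mirg, Kcnq1ot1, Airn and Nespas, a set of imprinted noncoding genes, were left out by name, of which H19, Meg3 and Mirg would have qualified. The rule left 227 genes of 2134 autosomal lincRNA genes with a row in the deposited tables, and of 43346 Ensembl genes in all. GENCODE M21 holds 5209 autosomal lincRNA genes, of which 3075 had no row. Those 3075 are not among the undetected lincRNA genes used for comparison further on. The same threshold was met by 15137 genes of all classes. The study had 1 group with 2 libraries, biological replicates 1 and 2, each described as the stomach of 1 pup and collected on a different day, with no second condition, allele or agent in the labels. Total RNA was extracted with a mirVana kit, molecules over 200 nt were kept and 10 ng entered each library. Because TPM in both libraries chose the genes, their levels are a description and carry no test.

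LincRNAs are spliced or unspliced transcripts without a known protein product, from genes outside the annotated span of coding genes. Some act as structural RNAs in the nucleus, some are precursors from whose introns or exons small nucleolar RNAs (snoRNAs) or microRNAs (miRNAs) are cut, and some start back to back with a coding gene from a shared promoter. Many are known only as clones, with no assigned role, which is why most names here are catalogue symbols (Gm or Rik).

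The libraries held 25072242 and 25599910 expected counts in replicates 1 and 2. They stood apart in at least 2 ways that touch every comparison of one with the other. The labels give each as a single pup and also as pooled male and female, which conflict, and Xist was at 0.05 TPM in replicate 1 and 101.77 in replicate 2, and the Y-linked genes Ddx3y, Eif2s3y, Kdm5d and Uty were at 22.6 to 62.3 TPM in replicate 1 and 0 to 0.01 in replicate 2. Exocrine pancreas markers were high in replicate 1 alone: Ctrb1 was at 152 TPM against 0.07, Pnliprp1 at 186 against 0.04 and Cpa1 at 88.4 against 1.13, while Cela1 was at 19.03 against 2.50. Stomach mesenchyme (Barx1, Foxf1, Tcf21), epithelium (Epcam, Krt8) and smooth muscle (Acta2, Myh11) markers were at 94.5 to 1929 TPM in both, while the lung marker Nkx2-1 was at 0 in both. The liver markers Alb and Afp were at 1.34 and 4.81 TPM in replicate 1 and at 3.51 and 6.69 in replicate 2. The part of sex and of pancreatic or other tissue in the differences given further on was not tested. In whole tissue, fewer cells of a type and less RNA per cell cannot be told apart.

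Of the 227 genes, 12 held an annotated miRNA gene on their own strand, and RefSeq mature sequences (GRCm38.p6) were found by position inside 9 of these and inside Gm29362, 33 sequences with 28 different seeds. Bases 2 to 8 of a mature miRNA, the seed, pair with target messages, so miRNAs with the same seed share predicted targets. The mature miRNAs are too short for these libraries, and the levels given are those of the long host transcript. Mir17hg carries the cluster of miR-17 to miR-92a, known for promoting proliferation in many embryonic tissues. The main arms are shown with the seed in capitals, since 4 seeds cover its 6 miRNAs:
miR-17-5p: cAAAGUGCuuacagugcagguag
miR-20a-5p: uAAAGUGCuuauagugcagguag
miR-18a-5p: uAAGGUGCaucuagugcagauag
miR-19a-3p: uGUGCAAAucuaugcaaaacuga
miR-19b-3p: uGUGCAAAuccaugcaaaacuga
miR-92a-3p: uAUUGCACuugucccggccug
6720427I07Rik spans 3 members of the let-7 family, regulators of developmental timing, which share 1 seed and differ only outside it:
let-7a-5p: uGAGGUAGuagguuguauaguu
let-7d-5p: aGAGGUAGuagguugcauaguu
let-7f-5p: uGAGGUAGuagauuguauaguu
4631405K08Rik, named Mir205hg in RefSeq, holds miR-205, known from stratified and other epithelia. E130102H24Rik holds miR-101a and A430106G13Rik miR-181b:
miR-205-5p: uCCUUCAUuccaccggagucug
miR-101a-3p: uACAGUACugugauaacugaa
miR-181b-5p: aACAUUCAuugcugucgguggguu

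A second group of sequences bears on members that start beside a coding gene. RefSeq promoter windows, 250 bases before to 50 after the start, were found for 101 members. The median window of the members was 58.7% G or C with 16 CpG, and that of 24 divergent members, defined further on, 69.8% with 31 CpG, against 52.7% and 7 CpG over 27025 genes. GGGCGG on either strand, the core of a GC box, was in 55 of the 101 windows (54.5%), in 17 of the 24 (70.8%) and in 35.9% of all windows. CCAAT on either strand was in 45 (44.6%), 10 (41.7%) and 37.9%, and TATAAA on either strand in 10 (9.90%), 1 (4.17%) and 14.2%. The windows of 3 divergent pairs, each with the start of the lincRNA inside, are shown with GGGCGG and CCAAT matches of both strands in capitals. The Foxf2 window at chr13:31625566-31625865 on the + strand holds the start of 1700018A04Rik, the Srsf1 window at chr11:88047123-88047422 on the + strand that of 2010015M23Rik, and the Snhg18 window at chr15:32244613-32244912 lies on the - strand, with Sema5a on the other side. They hold 2, 1 and 5 GGGCGG matches, and the Srsf1 window also holds 1 CCAAT match.
Foxf2 / 1700018A04Rik: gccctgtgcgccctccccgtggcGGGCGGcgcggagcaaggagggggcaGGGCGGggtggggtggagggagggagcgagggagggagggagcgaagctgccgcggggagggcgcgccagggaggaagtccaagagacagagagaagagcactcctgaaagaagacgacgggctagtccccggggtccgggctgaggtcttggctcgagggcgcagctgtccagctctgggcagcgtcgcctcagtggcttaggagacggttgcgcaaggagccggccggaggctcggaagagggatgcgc
Srsf1 / 2010015M23Rik: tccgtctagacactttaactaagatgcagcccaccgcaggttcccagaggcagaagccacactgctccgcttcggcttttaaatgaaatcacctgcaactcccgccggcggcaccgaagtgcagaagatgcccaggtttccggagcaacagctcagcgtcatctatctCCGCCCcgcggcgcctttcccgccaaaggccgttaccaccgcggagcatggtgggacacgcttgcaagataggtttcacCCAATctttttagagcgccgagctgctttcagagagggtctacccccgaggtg
Snhg18 / Sema5a: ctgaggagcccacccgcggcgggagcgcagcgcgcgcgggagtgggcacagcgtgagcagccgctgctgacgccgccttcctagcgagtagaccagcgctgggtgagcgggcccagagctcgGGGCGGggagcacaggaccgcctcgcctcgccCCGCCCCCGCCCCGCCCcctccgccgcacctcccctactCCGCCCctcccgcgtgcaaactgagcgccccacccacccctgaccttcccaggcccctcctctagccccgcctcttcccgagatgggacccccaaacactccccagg

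Levels spread over 4 orders of magnitude and were low for most members. Of the 227 genes, 5 had a mean TPM of 100 or more, 42 were at 10 to 100, 29 at 5 to 10, 81 at 2 to 5 and 70 at 1 to 2. The median mean TPM was 3.18, against 18.4 for 13271 detected protein-coding genes, 2.44 for 328 antisense genes and 3.14 for 184 processed transcripts. The median mean count was 79.0, with 93 members at 100 or more, 130 at 10 to 100 and 4 under 10. The lowest was Gm29362, at 3 and 2 counts with an effective length of 34 bases. Its TPM of 5.23 and 3.29 rests on those reads. As a share of all gene TPM the members held 2.75% ± 0.023 (SD, n = 2), and 91.0% ± 0.37 of that came from Gm42418, Malat1 and Gm26917. The other 224 genes together held 0.248% ± 0.0082 of gene TPM.

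**Figure D1:**
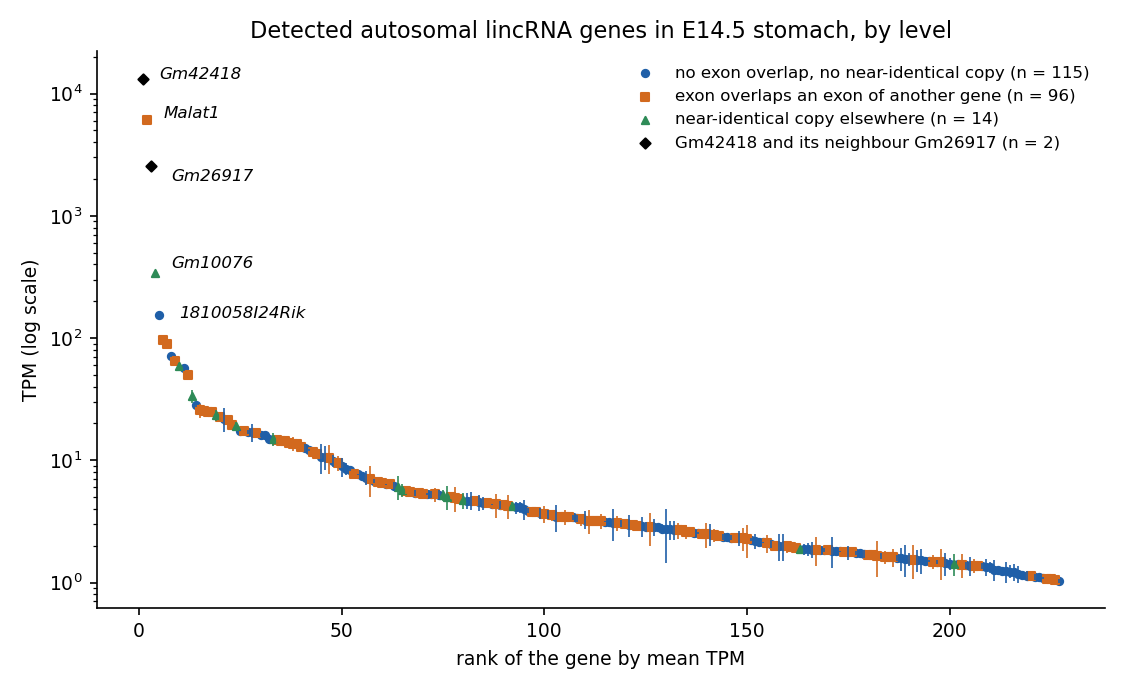
TPM (log scale) against rank for the 227 genes. Points are the mean of both libraries and vertical lines join the 2 libraries. Colours mark exon overlap with another gene (n = 96), a near-identical copy elsewhere (n = 14), neither (n = 115), and the pair Gm42418 and Gm26917. Only 5 points lie at or above 100 TPM.

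The gene at the top was not an ordinary lincRNA. Gm42418 (chr17:39846958-39848788, + strand) was at 13892 TPM in replicate 1 and 12315 in replicate 2, a mean of 13103 ± 1115 (SD, n = 2), from 405579 and 381694 counts. RefSeq lists it as Rn18s-rs5, an 18S ribosomal RNA-related pseudogene, where GENCODE calls it lincRNA. Gm26917 ends 616 bases before it on the same strand and was at 2744 and 2403 TPM. The level of Gm42418 was 5.06 and 5.13 times that of Gm26917, and the pair took 2.26% ± 0.12 (SD, n = 2) of gene counts. Their nearest coding gene, Esp38, was at 0 in both.

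Malat1, the RNA of nuclear speckles, came next at 5538 and 6559 TPM, 6048 ± 722 (SD, n = 2), from 43983 and 54795 counts (chr19:5795690-5802672, - strand). That level leans on 1 short transcript. The table of transcripts gave 80.9% and 81.6% of its reads to a transcript of 485 bases, at 5465 and 6476 TPM. The 6983-base transcript that spans the gene received 19.1% and 18.3% of the reads, or 72.6 and 81.6 TPM. Neat1, its neighbour on chromosome 19 and the scaffold of paraspeckles, was at 3.92 and 3.58 TPM, 3.75 ± 0.24 (SD, n = 2), from 1224 and 1326 counts, 98.1% and 100% of them on the 20771-base form. Neat1 stood near the median member by TPM, while its counts were well above the median of 79.0.

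Several other high entries share sequence with another gene, so their level cannot be assigned to one locus. Gm10076, at 331 and 348 TPM, is listed by RefSeq as a pseudogene, and its transcript is 99.5% identical to that of the ribosomal protein gene Rpl41 over its whole length. Gm7292, at 62.6 and 55.5 TPM, is 99.1% identical to 2900097C17Rik, which RefSeq names Norad, a cytoplasmic RNA that binds Pumilio proteins, at 37.5 and 29.7 TPM. Gm26825 matches Hspa8 at 99.6% and Gm26619 matches Rps18 at 99.1%. In all, 14 members had a copy of at least 95% identity over at least 50% of a transcript, and for 4 the best match was protein coding. 1810058I24Rik, at 158 and 149.7 TPM (chr6:35252654-35263496), is protein coding in RefSeq. RefSeq matched 132 members, of which it lists 117 as lncRNA, 10 as protein coding and 5 as pseudogenes. For 3 of the 10 (4930516B21Rik, Gm38399 and 4732487G21Rik) the entry is a coding gene that lies beside the member or overlaps it (Acvr2b, Nav1 and Gpatch2l).

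Hosts of small RNAs stood among the highest of the remaining genes. A snoRNA or scaRNA gene lay within 9 members on the same strand, 3.96% against 0.368% of 1904 autosomal lincRNA genes that did not reach TPM 1 in both libraries, and their median mean TPM was 22.6. Snhg6 (chr1:9941959-9944118, - strand), host of Snord87, was at 93.5 and 99.8 TPM, 96.7 ± 4.45 (SD, n = 2), from 736 and 828 counts. Its exons overlap those of Mcmdc2, a gene at 1.72 and 1.76 TPM. Snhg20, which holds a scaRNA gene and miR-6516, was at 82.7 and 95.1 TPM, and Snhg18, host of Snord123, at 27.2 and 29.8. Snhg12 carries Snora16a, Snora44, Snora61 and Snord99 and was at 23.8 and 25.7 TPM. 2900076A07Rik, with a scaRNA gene and miR-1839, was at 21.3 and 23.9, and 2700038G22Rik, host of Snord93, at 16.6 and 15.3. Epb41l4aos differed most between the libraries among these hosts, at 16.9 and 26.6 TPM from 93 and 155 counts. The last 2, Gm26945 and 9430037G07Rik, were at 2.94 and 1.42 mean TPM.

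The miRNA hosts were lower, with a median mean TPM of 3.77 over 12 genes. Mir205hg (4631405K08Rik, chr1:193507238-193510174) was at 7.07 and 8.44 TPM from 240 and 304 counts. The let-7 host 6720427I07Rik (chr13:48532905-48546500) was at 5.96 and 4.54 TPM from 221 and 179 counts. Mir17hg (chr14:115042879-115046727) was at 4.73 and 4.91 TPM, 4.82 ± 0.13 (SD, n = 2), from 274 and 302 counts. These 3 hosts lay 136940, 18046 and 45488 bases from the nearest coding gene (Camk1g, A830005F24Rik and Gpc5). E130102H24Rik, with miR-101a, was at 2.96 and 2.26 TPM and A430106G13Rik, with miR-181b, at 1.53 and 1.85. Mir670hg and Mir124a-1hg, whose miR-129 and miR-124 are known from neurons, were at mean TPM of 1.365 and 1.065, both just past the threshold. Gm21814, Gm20754 and Gm4675 hold a predicted or less studied miRNA gene and were at 10.7, 2.73 and 1.64 mean TPM, while Snhg20 and 2900076A07Rik are counted with both kinds of host. Small RNA genes of either kind lay in 19 members (8.37%), against 1.79% of the 1904 undetected lincRNA genes.

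Apart from Malat1, the highest established symbols without a small RNA gene wholly inside their annotated span on the same strand were Carmn and Lockd. Small RNA genes beyond the span were not looked for. Carmn, known from heart and smooth muscle, was at 70.4 and 71.9 TPM, 71.1 ± 1.08 (SD, n = 2), from 1247 and 1363 counts, 19350 bases from Il17b. Bvht, described for the cardiovascular lineage and annotated on the opposite strand beside Carmn, was at 14.2 and 19.7 TPM from 116 and 172 counts. Lockd, which lies 3579 bases from the cell cycle inhibitor gene Cdkn1b, was at 61.9 and 68.0 TPM, above Cdkn1b itself at 14.01 and 14.78. 1700020I14Rik, which RefSeq names Oip5os1 and which is known for directing decay of miR-7, was at 59.4 and 54.0 TPM from 4813 and 4951 counts. Tmem250-ps, protein coding in RefSeq, was at 55.1 and 45.3. Dubr was at 13.88 and 14.03 TPM, Ino80dos at 15.7 and 13.1, Pvt1 at 5.01 and 4.30 and Miat at 4.34 and 4.57. The first of these 4 hardly differed between the libraries.

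**Figure D2:**
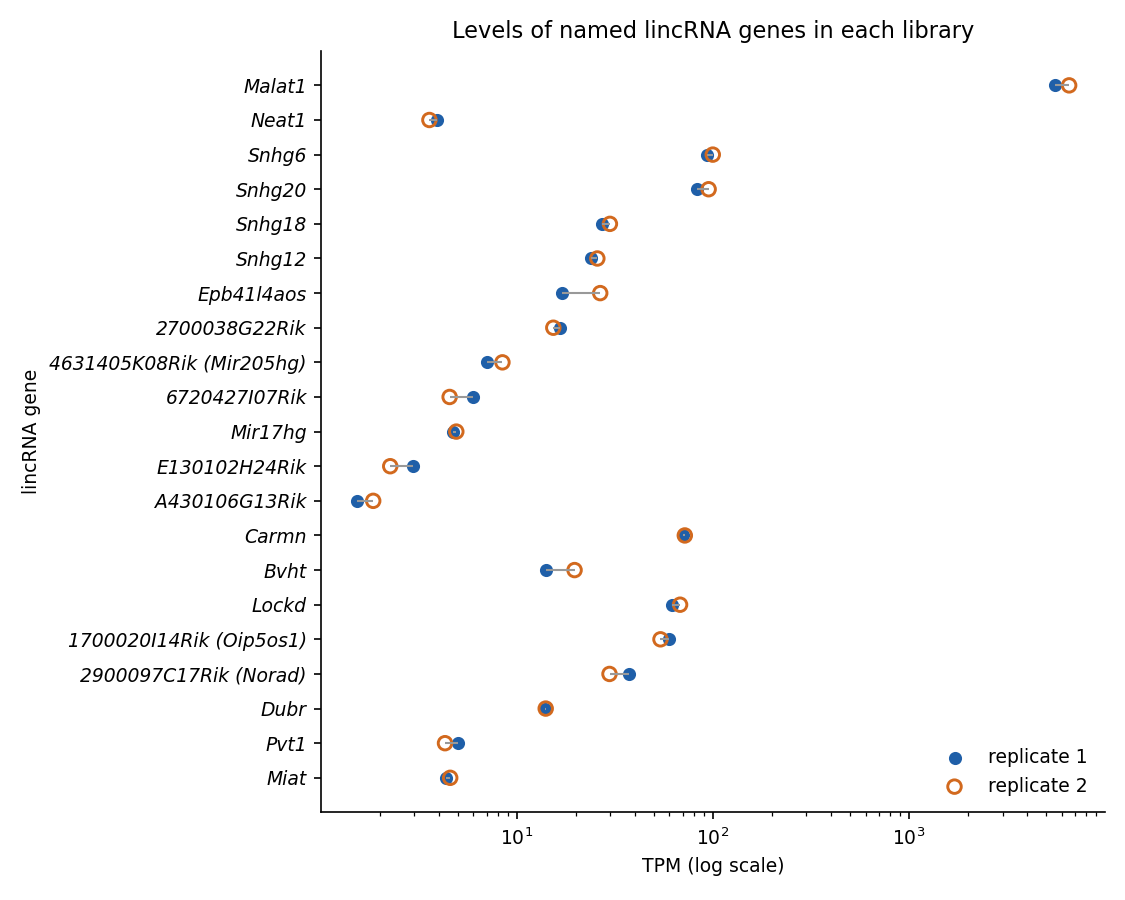
TPM (log scale) of 21 named lincRNA genes in replicate 1 (filled) and replicate 2 (open). Epb41l4aos (16.9 and 26.6 TPM) shows one of the widest gaps and Carmn (70.4 and 71.9) and Dubr (13.88 and 14.03) some of the narrowest.

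From a list of 131 known long noncoding genes, matched by GENCODE M21 symbol, 39 were autosomal lincRNA genes outside the names left out, and 17 of these were members. Of the rest of the 39, 17 had a row and fell below the threshold. The listed Oip5os1, Norad and Morrbid had no such symbol and are not in these counts. RefSeq gives these names to the members 1700020I14Rik, 2900097C17Rik and Gm14005. The lincRNA gene Rmrp had no row, and the row for a ribozyme gene of the same symbol was not used. Hotair and Hottip, which lie in the Hox clusters, were at 0 TPM in both libraries, Halr1 beside the Hoxa cluster was at 0.58 and 1.61, and Mir155hg, a host expressed in activated immune cells, at 0.20 and 0.10. A count of 0 at this depth allows up to 3 counts per library. Just inside the threshold, B230312C02Rik was at 1.00 and 1.36 TPM, Gm26764 at 1.00 and 1.07 and B230217O12Rik at 1.00 and 1.09. Just outside lay Gm17705 at 0.98 and 1.27, Gm26773 at 0.97 and 1.15 and Gm26668 at 0.97 and 1.27. A further 27 genes reached TPM 1 in replicate 1 only and 30 in replicate 2 only, and 1102 of the 2134 had no count in either library.

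The word intergenic did not describe many members. The span of 81 of 227 (35.7%) overlapped a coding gene in GENCODE M21, against 12.6% of the undetected lincRNA genes. Exons of 60 (26.4%) overlapped a coding exon, against 7.88%, and those of 102 (44.9%) an exon of any other gene, against 18.3%. Whether counting used strand is not given in the sources used here. It is therefore not known whether reads of such a member and of its partner were told apart. The 116 members, Gm26917 among them, with neither an exon overlap nor a near-identical copy had a median mean TPM of 2.71, and the other 111 one of 4.23. Gm26735, at 22.1 and 29.1 TPM, overlaps an exon of Sox4, and Gm28592, at 26.1 and 24.4 TPM, one of Phlda1. Gm26945 and B830012L14Rik (7.62 and 7.75 TPM) lie on chromosome 12 between the starts of Meg3 and Mirg, inside the imprinted cluster whose named genes were left out. The span of Gm26945 lies wholly within that of Rian, on the same strand. Rian, left out by name, was at 133 and 134 TPM.

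Members lay close to coding genes. The median distance to the nearest coding gene was 379 bases, against 28354.5 for the 1904 undetected lincRNA genes. Within 5000 bases lay 154 members (67.8%), against 28.4%. The 81 members whose span overlaps a coding gene enter that median at a distance of 0. For the 116 members with neither an exon overlap nor a near-identical copy the median distance was 2160 bases. The median of the undetected genes includes those with overlaps. The nearest coding gene was at TPM 1 or more in both libraries for 196 members (86.3%), against 73.2% beside undetected lincRNA genes and a background of 61.8% over all coding genes. For comparison, 10.8% of autosomal lincRNA genes with a row reached that level. Where the neighbour was detected it was the higher of the pair in all but 35 of 196 cases, and the median ratio of its TPM to the member's was 5.48. Across the 196 genes, log2 levels of member and neighbour had a Pearson r of 0.017 and a Spearman rho of 0.021, a description across genes within the same 2 libraries. Without exon overlap with a coding gene rho was -0.0068 (n = 141).

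**Figure D3:**
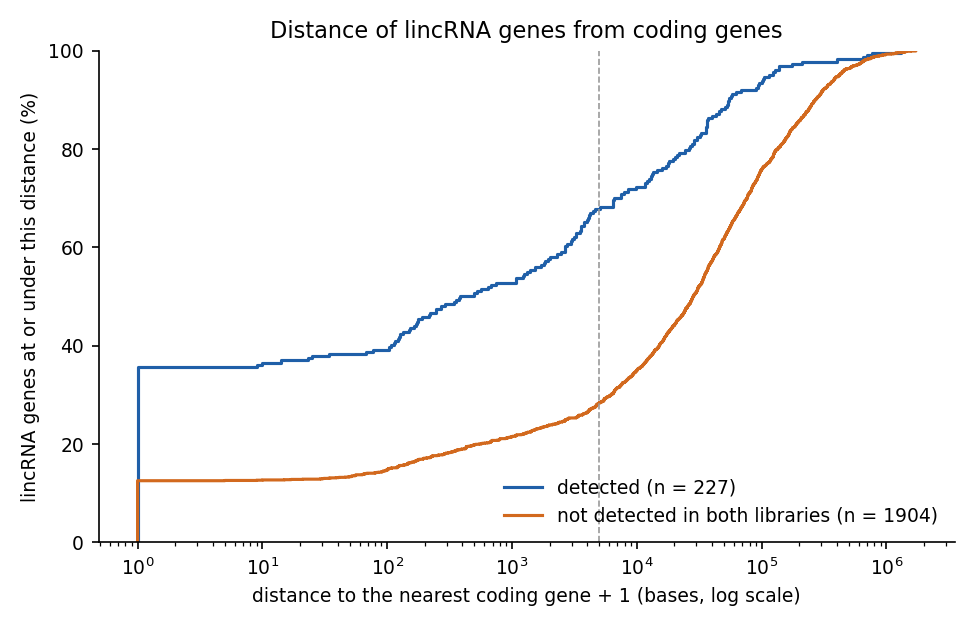
Share of lincRNA genes (%) at or under each distance from the nearest coding gene, in bases plus 1 on a log scale, for 227 detected and 1904 undetected autosomal genes. The dashed line is at 5000 bases, where the curves stand at 67.8% and 28.4%.

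Divergent pairs, in which the lincRNA starts within 1000 bases of a coding gene on the other strand and points away from it, numbered 34 (15.0%), against 7.35% of undetected lincRNA genes. The median distance between starts was 157.5 bases. The coding partner was detected in 32 pairs, at a median of 5.30 times the member, and was the higher in 25. Of the undetected lincRNA genes 140 were divergent, and 115 of these had a detected partner. The ratio was close to the 5.48 of all 196 members with a detected nearest coding gene. Snhg18, 148 bases from Sema5a, was an exception, at 28.5 mean TPM against 15.7 and 14.8 TPM for the semaphorin gene. 1700018A04Rik starts 24 bases from Foxf2, a gene of gut mesenchyme, and was at 5.38 and 5.19 TPM beside 16.3 and 16.1 for Foxf2. 2010015M23Rik starts 13 bases from the splicing factor gene Srsf1 and was at 2.00 and 2.64 TPM beside 267 and 247. Gm13830 beside the dynein light chain gene Dynll1 had the most unequal levels named here, at 2.72 and 3.82 TPM from 13 and 17 counts beside 1238 and 1212. Gm14230 was at 15.5 and 16.7 TPM beside 51.1 and 54.1 for Tgif2, a homeobox repressor. A930029G22Rik was detected at 2.44 and 2.57 TPM although its partner Akain1 was listed at 0 in both libraries.

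Developmental transcription factors were the nearest coding genes of 20 members (8.81%, close to the 7.41% of undetected lincRNA genes), 16 of them within 15000 bases. The list of 282 such genes was made by hand and also holds Zfp36l1, which encodes an RNA-binding protein. It leaves out other factors, among them Tgif2, nearest to Gm14230, and Pou2f2, nearest to D930028M14Rik. D930028M14Rik was at 4.66 and 3.96 TPM beside 1.32 and 1.66 for Pou2f2. The 19 listed neighbours of the 20 members were all detected, at 1.44 to 195.48 mean TPM, and were above the member in 18 of 20 pairs. The list was made with earlier results of these data known, so the detection of all 19 is a description only. Over all members with a detected nearest coding gene, that gene was the higher in all but 35 of 196 pairs. Among regulators of gut endoderm and mesenchyme, 9030622O22Rik was at 7.28 and 10.5 TPM beside Foxa2 at 13.8 and 15.0, 5033428I22Rik at 4.46 and 4.09 beside Hand2 at 14.8 and 13.6, and Gm20467 at 1.19 and 1.12 beside Nkx2-3 at 5.22 and 4.05. Gm26645 was at 2.24 and 1.93 TPM beside the Hedgehog effector Gli3 at 25.1 and 25.6, and B230312C02Rik at 1.00 and 1.36 beside Gata5 at 3.75 and 3.99. The homeobox gene Meis2 was nearest to 2 members, 2700033N17Rik at 11.2 and 12.3 TPM and G630016G05Rik at 2.34 and 1.37, and was itself at 65.6 and 62.7.

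Gm26735 at Sox4 was the highest of the 20, at 25.6 ± 4.96 TPM (SD, n = 2), beside 62.4 and 45.2 for Sox4. Member and factor went opposite ways between the libraries there, and their exons overlap. Gm28760, whose exons overlap Pitx1, was at 5.34 and 3.38 TPM beside 199 and 192 for Pitx1, the widest gap in level of the 20. Pvt1 lay 47612 bases from Myc, which was at 51.5 and 48.1 TPM. Of the 20, the 2 members above their factor were D730003I15Rik and Gm12688. The first was at 5.37 and 3.98 TPM beside 2.85 and 2.13 for the stress response gene Atf3. Gm12688 was at 1.58 and 2.13 beside 1.60 and 1.28 for the neural crest factor Foxd3. In replicate 1 the second pair was level. Gm26669 (Zfp36l1), Gm26883 (Tshz2), A330048O09Rik (Id4), Gm4675 (Sox21) and Gm26523 (Prrx1) were at 1.42 to 5.38 mean TPM. Gm13470 (Zeb2) and 1110015O18Rik (Zfhx4) lay over 100000 bases from their factor and were at 3.46 and 1.23 mean TPM.

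**Figure D4:**
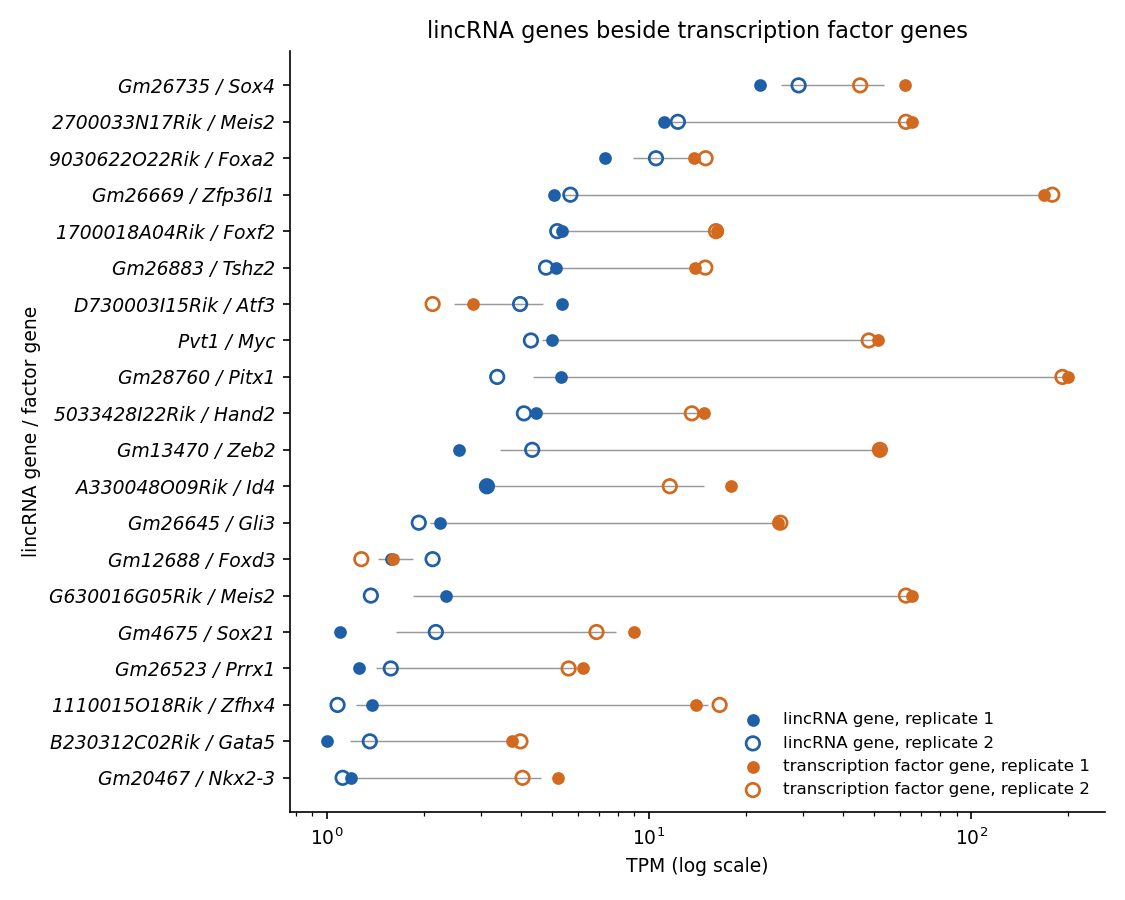
TPM (log scale) of 20 lincRNA genes (blue) and the transcription factor gene nearest to each (orange), in replicate 1 (filled) and replicate 2 (open). Grey lines join the means. The factor lies to the right in 18 of 20 rows.

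Between the libraries few members passed 2-fold, and more passed 1.5-fold. Members and all genes differ in selection and in counts, so the shares given here are not matched. The ratio is the log2 of replicate 2 over replicate 1 on expected counts with library sizes normalized by edgeR's TMM method, and covers genes with a mean of at least 100 counts. A single library stood on each side, so no test was run. None of the 93 members passed 2-fold, a fold that 0.298% of 12761 genes passed. Beyond 1.5-fold lay 9 of 93 members, against a background of 1.25%. That background was not matched on counts. The 9 had mean counts of 104 to 154, near the minimum of 100. At 100 to 1000 counts lay 82 of the 93 members and 6933 of the 12761 genes. What part counting error has in the 1.5-fold share was not tested. At a mean count of 10 or more 1 of 223 passed 2-fold, Gm9801 at 21 and 8 counts, against 3.6% of all genes. Members had to reach TPM 1 in both libraries, which takes out genes that were low in either. The background genes had no such filter, so the 2-fold shares do not show that members differed less. The deposited TPM intervals of the 2 libraries did not overlap for 24 of 227 members (10.6%), against 14.9% of 15137 genes at TPM 1 or more in both. These 2 sets were not matched on counts, on which the width of an interval depends, and the median member had 79.0 counts. For 3 of the 24, Gm42418, Malat1 and Gm26917, the deposited TPM lay outside its own interval.

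The direction was uneven and depended on the scaling: 66 of 93 members were higher in replicate 2 (background 48.1%) with TMM, but 23 of 93 (24.7%) with the spike-in RNAs as reference, where all genes stood at 5.12%. The median ratio of the members was 0.14 beside -0.01 over all genes with TMM, and -0.13 beside -0.27 with spike-ins, a shift of all genes that moved the members with them. Among genes at 100 to 1000 counts the medians were 0.15 for 82 members and -0.0016 for 6933 genes. With TMM the median was 0.08 for 78 antisense genes, 0.09 for 89 processed transcripts and -0.01 for 12168 coding genes. Malat1 stood at 0.30 with TMM and 0.03 with spike-ins. Among the 38 members without overlap or copy at this count, 29 were higher in replicate 2 with TMM.

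The members furthest apart had few reads. Gm17354 was at 79.0 and 154 counts, a log2 ratio of 0.94, and its exons overlap Cc2d1b. D130017N08Rik, 26074 bases from Usp42, was at 72 and 136 counts (0.89), and 1700048O20Rik, near Fam198a, at 98 and 168 (0.75). Epb41l4aos and Gm26603 followed at 0.71 and 0.67. At the other end, Gm26790, which overlaps Zfp507, was at 136 and 78.5 counts (-0.81), and Gm26718, which overlaps Pgam5, at 194 and 114 (-0.79). Gm26532 near Zswim4 was at 132 and 81 counts (-0.72), Gm15675 near Cd55 at 169 and 116 (-0.57) and the let-7 host 6720427I07Rik at 221 and 179 (-0.33). Ratios of 74 members and their nearest coding genes, both at 100 counts or more, had a Pearson r of 0.03 and a Spearman rho of 0.10 across genes.

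**Figure D5:**
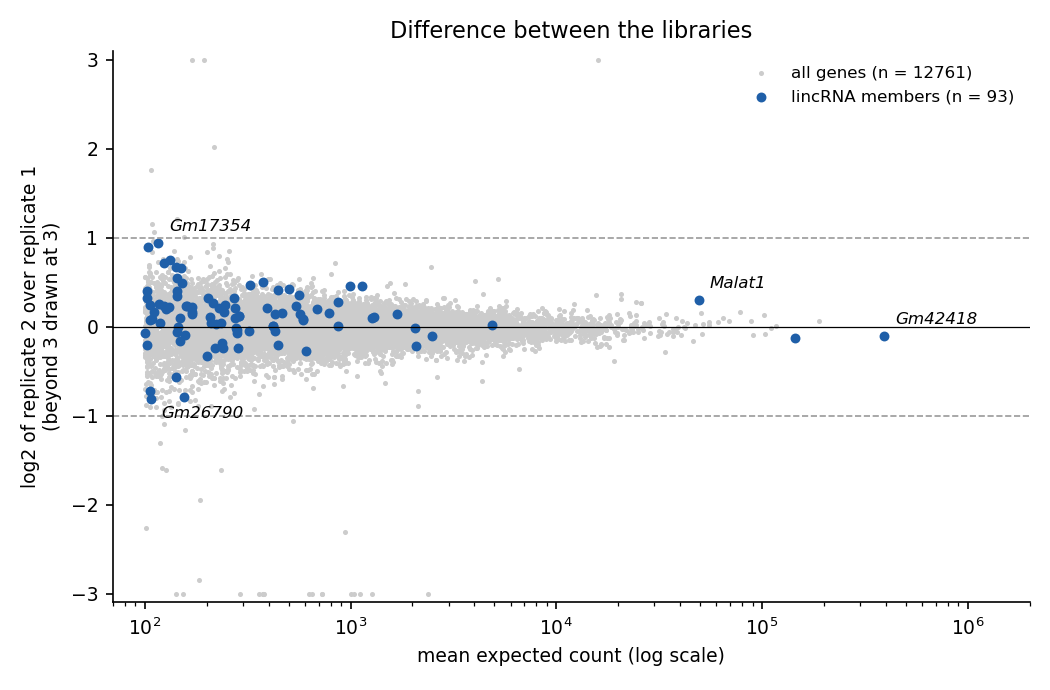
Log2 of replicate 2 over replicate 1 (TMM scaling) against mean expected count (log scale) for 12761 genes (grey) and 93 lincRNA members (blue). Dashed lines mark 2-fold. No member passes them, and 66 of 93 lie above 0 with this scaling, against 23 of 93 with spike-in scaling.

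The deposited transcript tables held 2 or more transcripts for 89 members. In 77 of them the same transcript had the highest share in both libraries, and among 41 at 100 counts or more in 40. The median share of the top transcript was 72.2%, with 28 genes at 90% or more and 12 under 50%. Lockd had 93.5% ± 0.91 (SD, n = 2) of its level on 1 transcript of 441 bases and Carmn 78.9% ± 0.72 on 1 of 988 bases. These shares are of the level, which is corrected for transcript length, and shares of reads can differ. Snhg6 was spread over 4 transcripts, the highest by level of 473 bases at 30.1% and 37.7%. By reads its transcript of 816 bases led, at 43.4% and 39.2%. The level of 1700020I14Rik was split between its transcripts of 8300 bases, at 50.9% and 55.5%, and 1381 bases, at 49.1% and 44.5%. By reads its 8300-base transcript held 86.9% and 88.9%.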

How the data were processed

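Expression was measured by total RNA-seq in 2 libraries of 1 group. Per the deposited notes, reads were placed on mm10 with GENCODE M4 genes. Aligner, counting program and use of strand: not given in the sources used here. The authors deposited expected counts (estimated reads per gene, not normalized), TPM, the bounds of an interval for TPM, read here as a score with no stated level, and, for transcripts, the percent of the gene's level. The deposited effective lengths and posterior mean TPM (other columns) served for checks. Gene class, position and neighbours came from GENCODE M21 (same assembly), and promoter and miRNA sequences from RefSeq GRCm38.p6.

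The members, the known-gene list, the factor list and the rule for named genes were chosen with earlier results of these data known. Named were the 15 highest members, established symbols among the 40 highest, known genes, miRNA hosts, factor neighbours, the 5 highest and 5 lowest ratios and 3 genes on each side of the threshold. Members beyond this rule (examples of divergent pairs, copies, snoRNA hosts and overlaps) were chosen after their values were seen. The nearest coding gene was taken by distance between spans on either strand. Copies were found with blastn 2.17.0 (95% identity, 50% coverage, 100 bases). Ratios used edgeR 4.0.16 in R 4.3.3 with 0.5 added to each count and a mean count of 100, and DESeq2 1.42.0 size factors as an alternative; expected counts were rounded to whole numbers for DESeq2. The ratio step was tested on simulated data. No p-value was computed. Intervals and floors cover counting error only, since PCR copies of 1 molecule cannot be recognised without molecular identifiers. How well RNAs without a poly(A) tail were captured was not tested.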

Additional observations from a re-analysis of the deposited data

How the results depend on the processing

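The alternatives were set with earlier results known, and those without overlapping members or without Gm42418 and Gm26917 were added after the values were seen. A threshold of TPM 2 in both libraries left 147 members and TPM 5 left 69. TPM 0.5, the posterior mean, rescaled TPM and a single library gave 248 to 332, and the single libraries 254 and 257. The number over 2-fold was 2 with spike-in scaling, 1 at a mean count of 10 or with no filter on counts, and 9 at 1.5-fold. The median ratio turned to -0.1305 with spike-in scaling and was 0.07391 to 0.1489 under the other alternatives. A detected nearest coding gene was found for 122 members at TPM 2 and for 105 of the 116 without overlap or copy, and for 221 and 222 with a single library. The members' share of gene TPM became 2.664% on expected counts, 2.653% by posterior mean, 1.242% without Gm42418 and 0.9456% without Gm42418 and Gm26917, and was 2.733% and 2.766% in the single libraries. At 100 counts, 40 members had the same top transcript. Counts of divergent pairs and small RNA hosts stayed within 1.5 times the reported ones. Ratios between the libraries cannot be given without either replicate. No paired analysis was possible because there is only 1 group. Most members have under 100 counts, and without 1 library their levels have no spread.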

Other observations

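The 2 clone-named members inside the imprinted cluster on chromosome 12 showed small differences between the libraries. B830012L14Rik was at 566 and 611 counts (log2 ratio 0.09) and Gm26945 at 96 and 99 (0.02). Among members with antisense-type symbols, Fam120aos was at 5.12 and 5.75 TPM, and Lppos, which overlaps Lpp, at 3.64 and 2.72. Gdap10, which overlaps Nampt, was at 5.70 and 4.71 TPM from 471 and 413 counts.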
